A study of Mus musculus with 4 samples.

Results

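Mouse embryonic fibroblast (MEF) cultures held transcripts of 10 genes that mark macrophages, and these genes are described here out of 55487 genes counted. They were taken from the count table by their symbols (Lyz2, Csf1r, Adgre1, Cd68, C1qa, C1qb, C1qc, Tyrobp, Fcer1g and Ptprc), and all 10 were found. The set was chosen with earlier results of these data known. The cells were wild-type MEFs, a primary culture from whole embryos that can carry other embryonic cells along. They were used at passage 2 by their labels, and the sources differ on this point. Control MEFs had no addition, and PEDF-treated MEFs received pigment epithelium-derived factor (PEDF, a secreted serpin) at 100 ng/mL for 24 h. The embryos were of the C57BL/6J strain. Both conditions were cultured in each of 2 experiments with separate embryos, which gave 2 control and 2 PEDF libraries of polyadenylated RNA. The labels give neither the sex nor the number of the embryos. Each library held between 14722848 and 18144640 counts. Col1a1, the collagen gene used as a fibroblast marker, had a mean of 8653 TPM (transcripts per 1000000, scaled by gene length). The macrophage markers summed to 118 to 190 CPM, where CPM are counts per 1000000 of a library scaled by edgeR's TMM factors (0.983 to 1.01).

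Macrophages arise in the embryo from blood progenitors and settle in every tissue. They depend on the CSF1 receptor for survival, and fibroblasts are a main source of its ligand CSF1. Macrophages take up dead cells and debris, digest them in lysosomes, secrete the complement protein C1q and signal through adaptors that carry an immunoreceptor tyrosine-based activation motif (ITAM). The transcription factor PU.1, the product of Spi1, binds DNA with a GGAA core and drives many macrophage genes. The cultures were sequenced to look for genes that respond to PEDF in the context of senescence, and the comparisons below ask whether the macrophage transcripts differed with PEDF or with the MEF preparation.

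The promoter stretches below are shown because macrophage genes share the PU.1 core, and the set of markers was read for it. The letters searched were AGGAAGT on both strands (ACTTCCT when read on the other strand), chosen with the promoter sequences in view, in 300 bases from 250 before to 50 after each RefSeq start site on GRCm38.p6. Promoters of 6 markers were in the table, and 4 of them (Lyz2, C1qb, C1qc and Ptprc) held the letters, while 10.7% of the 27025 genes in that table did. Since the letters were chosen with these promoters in view, nothing is read from that difference. No promoter of Cd68 or Fcer1g matched, and Csf1r, Adgre1, C1qa and Tyrobp were not in the table. Each stretch is written along the strand of its gene with the matching letters in capitals, and a match is a description of letters, not of binding. Of the 2 matches in the Ptprc promoter, the one farther from the start site is shown. The third line is Lyz1, a neighbouring copy of Lyz2 that keeps the same match at the same distance of 100 bases from the start site.
Lyz2, chr10:117282356-117282382, minus strand: atcggtaggaACTTCCTgttttgcaca
C1qb, chr4:136886237-136886263, minus strand: aggacctgaaACTTCCTgagggcagca
Lyz1, chr10:117292952-117292978, minus strand: atctgtaggaACTTCCTgctttacgca
C1qc, chr4:136893093-136893119, minus strand: gacggcagacACTTCCTcattttggca
Ptprc, chr1:138175402-138175428, minus strand: acttgaattaAGGAAGTaagaagccat
Spi1 itself was at 4.95 CPM (control) and 5.02 CPM (PEDF) in experiment 1 and at 3.14 and 3.31 CPM in experiment 2.

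Levels can be set between genes only per length, for which the authors' TPM were used. Lyz2, which encodes the bacteria-digesting lysozyme M, was the most abundant marker with a mean of 104.6 TPM (SD 34.1, n = 4 libraries), and 1372 genes of the table had a higher mean. C1qb (42.7 TPM, SD 9.43) and C1qa (41.8, SD 6.20) followed. Lyz2 did not overlap C1qb over the libraries, while the ranges of C1qb and C1qa did overlap. C1qc (21.2 TPM), Tyrobp (20.5) and Cd68 (19.3) came next, and neighbours in this group overlapped. The lowest library of Cd68 (17.8 TPM) still exceeded the highest of Csf1r (16.5). Csf1r (14.9), Fcer1g (14.0) and Adgre1 (12.1) overlapped as neighbours. Ptprc, the pan-leukocyte CD45 gene, was far below with 0.568 TPM (0.406 to 0.703) and no overlap with Adgre1. Its exons cover 18313 bp in GENCODE release M21, the longest of the set, and those of the others cover 667 bp (Tyrobp) to 5774 bp (Csf1r).

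**Figure D1:**
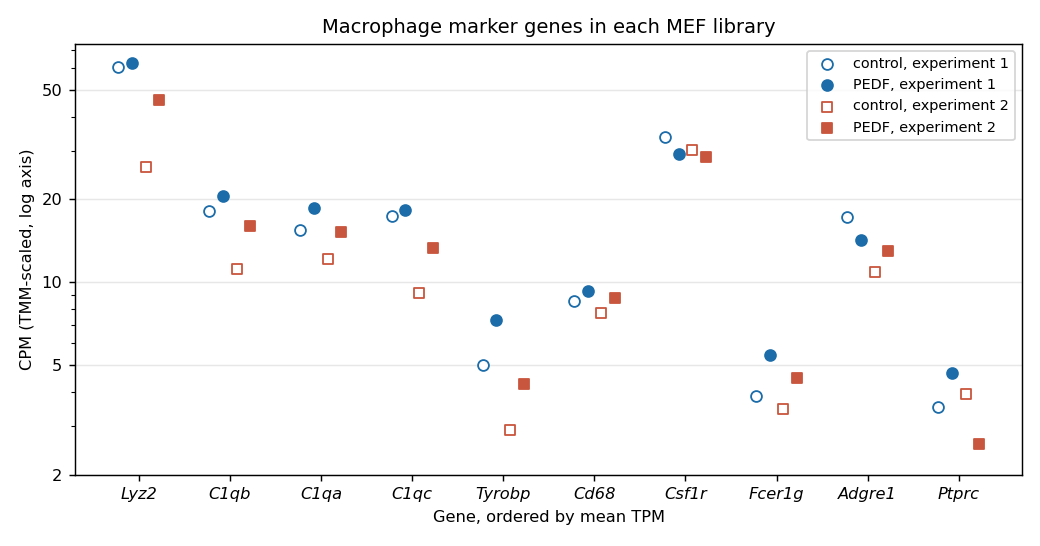
The CPM of each macrophage marker (log axis) is plotted for the 4 libraries, with open symbols for control, filled symbols for PEDF, circles for experiment 1 and squares for experiment 2. For Lyz2 the control library of experiment 2 (26.3 CPM) lies apart from the other libraries (46.1 to 62.6 CPM), and Csf1r stays between 28.6 and 33.7 CPM.

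None of the 10 markers passed the test for PEDF without a term for the experiment. By the quasi-likelihood test of edgeR, 0 of 10 passed an adjusted threshold of 0.05 and 0 the same threshold unadjusted, against 0.00516% and 6.88% of the 19384 genes tested. DESeq2 gave 0 by either measure too. The smallest adjusted p was 0.739 (C1qa). The fitted log2 fold change was above 0 in 7 markers and below 0 in 3, with a median of 0.28 against 0.00 over all genes tested. Within the experiments, 7 markers had a higher CPM with PEDF in both (Lyz2, Cd68, C1qa, C1qb, C1qc, Tyrobp and Fcer1g), a pattern found in 30.1% of all genes tested. Both PEDF libraries exceeded both control libraries in Cd68 and Fcer1g (18.9% of all genes) and lay below them in Csf1r (18.4%). In whole cultures, a different number of macrophages and a different amount of RNA per macrophage cannot be told apart.

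The lysosomal markers differed in how far the libraries spread. Lyz2 (chromosome 10, 117277331 to 117282321) had 893 and 973 counts in control and PEDF-treated MEFs of experiment 1, or 60.5 and 62.6 CPM. In experiment 2 it had 469 and 822 counts, or 26.3 and 46.1 CPM. The control library of experiment 2 was thus low by itself, and the other libraries were within 46.1 to 62.6 CPM. The ratio of PEDF to control was 1.03 (95% exact binomial interval 0.944 to 1.13) in experiment 1 and 1.76 (1.57 to 1.97) in experiment 2, and these intervals, which cover counting error only, did not overlap. A test of this difference would leave no spread between libraries, so none was made. The fitted log2 fold change of Lyz2 was 0.34 (standard error 0.60, adjusted p = 0.940, edgeR). With the experiment as a block it was 0.39 (standard error 0.07, adjusted p = 2.02e-05), which made Lyz2 the 1 marker called among the 10, where 1.67% of all genes were called as higher. Unadjusted, the block put 5 markers past 0.05, all higher (Lyz2, C1qa, C1qb, C1qc and Tyrobp), against 7.18% of all genes. That call went when the block was combined with no filter on low counts (standard error 0.19, adjusted p = 0.619) or with filterByExpr (standard error 0.33, adjusted p = 0.759). Leaving out control replicate 2 turned the unblocked value of Lyz2 to -0.16. Cd68 (chromosome 11, 69664213 to 69666153), a lysosomal membrane glycoprotein, had 8.54 and 7.73 CPM in control MEFs and 9.33 and 8.75 CPM with PEDF. Its groups did not overlap, yet its log2 fold change was 0.15 (95% interval -0.20 to 0.51), and 0.08 to 0.22 with single libraries left out.

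Reads of Lyz2 could be confused with those of Lyz1. The transcripts of this pair match at 96.0% of 1262 aligned bases, with 51 differences and a longest identical stretch of 118 bases. Lyz1 was at 0 counts in every library, which allows up to 3 counts, or 0.168 to 0.203 CPM. The counts used uniquely mapped reads, so read pairs that fall within identical stretches of both genes were left out.

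**Figure D2:**
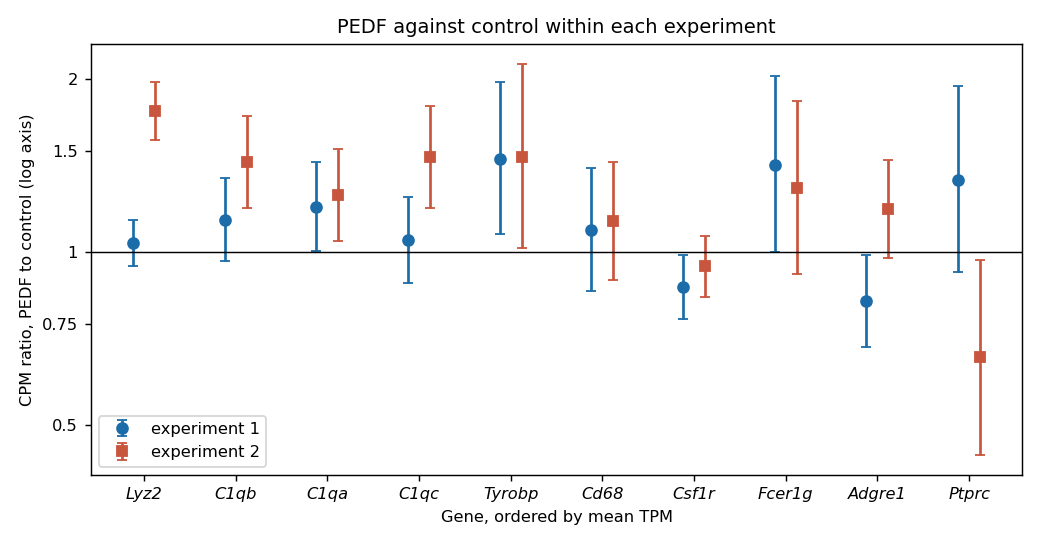
The ratio of PEDF to control CPM (log axis) is plotted for each marker in experiment 1 (circles) and experiment 2 (squares), and the bars are exact 95% intervals for counting error. The Lyz2 ratios of 1.03 and 1.76 have separate intervals, and Csf1r lies below 1 in both experiments (0.870 and 0.944).

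C1q starts the classical complement pathway and is assembled from chains of 3 genes, which lie next to each other on the minus strand of chromosome 4 (C1qb from 136880129, C1qc from 136889804 and C1qa to 136898803). C1qa had 15.5 and 12.2 CPM in control MEFs of experiments 1 and 2 and 18.6 and 15.3 CPM with PEDF. C1qb had 18.1 and 11.2 CPM against 20.6 and 16.1, and C1qc had 17.4 and 9.13 CPM against 18.3 and 13.4. In all 3 chains the control library of experiment 2 was the lowest and the PEDF library of experiment 1 the highest, and the groups overlapped. The ratio of PEDF to control in experiment 1 was 1.20 for C1qa (1.00 to 1.43), 1.14 for C1qb (0.965 to 1.34) and 1.05 for C1qc (0.883 to 1.25). In experiment 2 it was 1.25 (1.05 to 1.51), 1.43 (1.19 to 1.72) and 1.46 (1.19 to 1.79). The chains therefore had ratios above 1 in both experiments, with intervals that overlapped between the experiments. Their fitted log2 fold changes were 0.29, 0.33 and 0.26 (standard errors 0.15, 0.21 and 0.35), with adjusted p between 0.739 and 0.912 in edgeR. That of C1qa ranged from 0.12 to 0.47 with single libraries left out. With the block, C1qb came nearest to a call (0.34, standard error 0.12, adjusted p = 0.0914). Without control replicate 1, edgeR called C1qb (0.70, adjusted p = 0.0413), C1qc (0.79, adjusted p = 0.0423) and Lyz2 (1.04, adjusted p = 0.0122), where 67 of 18792 genes were called as higher and 138 as lower and 1 control library remained. Without any other single library 0 markers were called in edgeR (0 to 3 unadjusted), and without control replicate 2 the values were 0.01 for C1qb, -0.15 for C1qc and -0.16 for Lyz2.

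The ITAM adaptors were fitted above 0 for PEDF, and neither passed the test. Tyrobp (chromosome 7, 30413760 to 30417585) encodes DAP12, the adaptor of TREM2 and related receptors. It had 5.01 and 2.91 CPM in control MEFs of experiments 1 and 2 and 7.27 and 4.26 CPM with PEDF, from 52 to 113 counts in a library. Experiment 1 was higher than experiment 2 in both conditions. Its ratio of PEDF to control was 1.45 (1.07 to 1.97) in experiment 1 and 1.46 (1.02 to 2.12) in experiment 2. Fcer1g (chromosome 1, 171229572 to 171234365) encodes the gamma chain shared by Fc receptors. Its CPM were 3.86 and 3.47 in control and 5.47 and 4.49 in PEDF-treated MEFs, without overlap between the conditions. The fitted log2 fold changes were 0.55 for Tyrobp (95% interval -0.10 to 1.19, adjusted p = 0.752) and 0.44 for Fcer1g (-0.07 to 0.94, adjusted p = 0.746) in edgeR, and neither was called with the block (adjusted p = 0.156 and 0.366). With single libraries left out the value ranged from 0.12 to 0.97 for Tyrobp and from 0.29 to 0.58 for Fcer1g.

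The receptors of the macrophage surface did not share this direction. Csf1r (chromosome 18, 61100598 to 61132149), the receptor for CSF1 and IL-34, had 33.7 and 30.3 CPM in control MEFs and 29.3 and 28.6 CPM with PEDF. All its values lay close together, with the PEDF libraries lowest, and the log2 fold change was -0.14 (95% interval -0.35 to 0.07). With single libraries left out it ranged from -0.22 to -0.065. Over 873 bp its exons overlap those of Hmgxb3 on the opposite strand, and the strand setting of the counting is not given in the sources used here, so its count is uncertain. Hmgxb3 had 43.1 to 52.9 CPM and a log2 fold change of -0.22 (adjusted p = 0.695). Adgre1 (chromosome 17, 57358691 to 57483527), which encodes the F4/80 antigen, had 17.3 and 10.9 CPM in control MEFs and 14.2 and 13.0 CPM with PEDF. The control libraries were its highest and its lowest. Ptprc (chromosome 1, 138062861 to 138175708) had 3.52 and 3.92 CPM in control MEFs and 4.70 and 2.58 CPM with PEDF, from 46 to 73 counts. For Adgre1 and Ptprc the direction was opposite in the experiments. In Adgre1 the ratio of PEDF to control was 0.823 (0.684 to 0.990) in experiment 1 and 1.19 (0.976 to 1.44) in experiment 2, and in Ptprc it was 1.33 (0.922 to 1.94) and 0.658 (0.443 to 0.968).

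**Figure D3:**
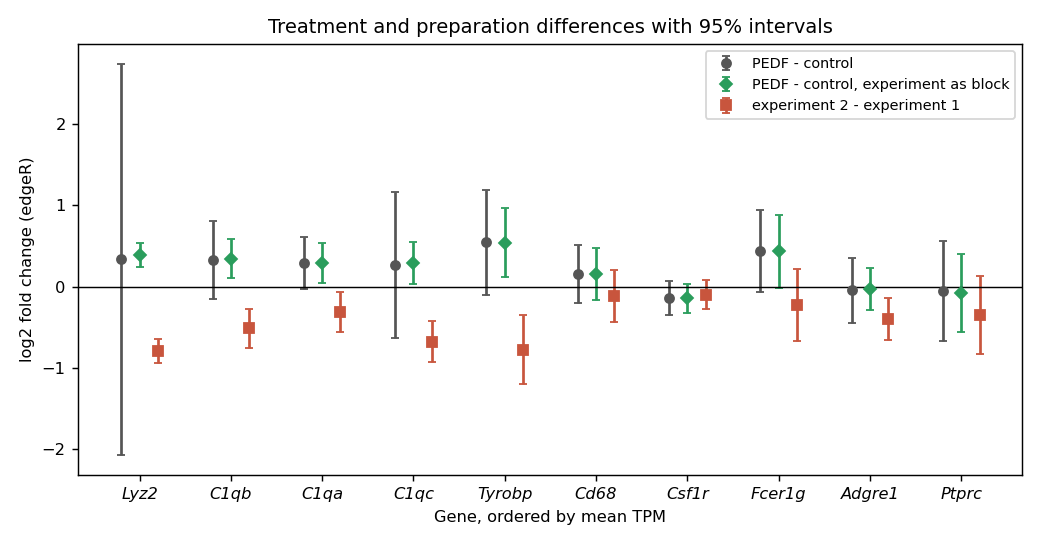
The edgeR log2 fold change of each marker is plotted with its 95% interval for PEDF against control (circles), the same with the experiment as a block (diamonds) and experiment 2 against experiment 1 (squares). All 10 squares lie below 0, while the circles have intervals that include 0.

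Between the MEF preparations 4 of the 10 markers passed the test. Experiment 2 was fitted as lower than experiment 1 in all 10 markers, with a median log2 fold change of -0.37 against 0.00 over all genes tested. With the treatment as a term, 4 markers were called as lower in edgeR (2.19% of all genes tested were) and 0 as higher (2.3%). They were Lyz2 (-0.79, standard error 0.07, adjusted p = 6.05e-23), Tyrobp (-0.77, standard error 0.22, adjusted p = 0.0132), C1qc (-0.68, standard error 0.13, adjusted p = 2.88e-05) and C1qb (-0.51, standard error 0.12, adjusted p = 0.00181). C1qb, C1qc and Tyrobp were also called with no filter on low counts and with filterByExpr, and Lyz2 was not (adjusted p = 0.180 and 0.575). Adgre1 (-0.40, adjusted p = 0.0578) and C1qa (-0.32, adjusted p = 0.153) were not called, although both libraries of experiment 2 lay below both of experiment 1 in these 6 genes. Such separation was found in 18.4% of all genes tested, and an unadjusted p under 0.05 with a lower level, which these 6 had, in 7.28%. In 9 markers experiment 2 was lower in both conditions (28.9% of all genes). Csf1r (-0.10, 95% interval -0.28 to 0.08), Cd68 (-0.12, -0.43 to 0.20), Fcer1g (-0.22, -0.67 to 0.22) and Ptprc (-0.35, -0.83 to 0.13) overlapped between the preparations.

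The calls between preparations rest on few libraries. Lyz2 in experiment 2 was 0.435 times its level in experiment 1 in control MEFs (0.388 to 0.487) and 0.737 times with PEDF (0.671 to 0.809). Without a term for the treatment, 0 of the 10 were called (4 at an unadjusted 0.05, edgeR), where 11 of 19384 genes were called and 1486 passed unadjusted. In limma on log2(TPM + 1) 0 of the 10 were called as well (5 unadjusted), where 1 gene was called and 2322 passed unadjusted. With single libraries left out, again without that term, the absence of PEDF replicate 1 gave 0 calls (3 unadjusted), that of control replicate 2 left Lyz2, that of control replicate 1 left Tyrobp and C1qc, and that of PEDF replicate 2 left all 4. Over all genes these settings called 21, 61, 129 and 480 in the same order. The log2 fold changes then ranged from -1.23 to -0.42 for Lyz2, from -1.08 to -0.48 for Tyrobp, from -0.97 to -0.42 for C1qc and from -0.79 to -0.27 for C1qb. DESeq2 set an adjusted p for 1310 genes in this comparison, and no marker was among them.

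Single libraries stood at the ends of most markers. Control replicate 2 was the lowest of the 4 libraries in 8 markers, as it was in 30.1% of all genes tested, and PEDF replicate 1 was the highest in 8 (28.8%). Both held in 7 markers (14.8%). Summed over the 10 markers, the counts were 2708 and 2959 in control and PEDF-treated MEFs of experiment 1 and 2106 and 2716 in those of experiment 2. The sums correspond to 183 and 190 CPM in experiment 1 and 118 and 152 CPM in experiment 2. The ratio of PEDF to control was 1.04 (0.985 to 1.09) in experiment 1, an interval that includes 1, and 1.29 (1.22 to 1.37) in experiment 2, with intervals for counting error alone. Without Lyz2, which has a near copy, and Cd68, which other cells also express, the ratios were 1.04 (0.969 to 1.11) and 1.16 (1.08 to 1.25).

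**Figure D4:**
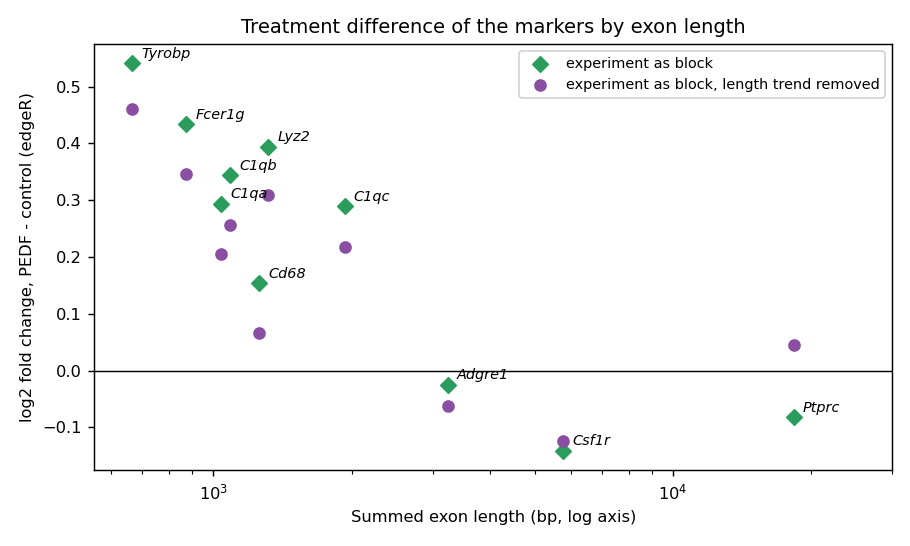
The log2 fold change of PEDF against control with the experiment as a block is plotted against the summed exon length of each marker (log axis), before (diamonds) and after (circles) removal of the trend with length from each library. The shortest marker, Tyrobp, has the largest value (0.54, then 0.46), and Csf1r the lowest (-0.14, then -0.12).

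Of the 7 markers with a higher CPM with PEDF in both experiments, 6 had exons under 1400 bp, and C1qc had 1931 bp. Among well-expressed genes (mean log2 CPM above 3), the median log2 fold change with the block was 0.09 for 749 genes under 1400 bp and -0.06 for 3671 genes of 6000 bp or more. The 4 markers of that expression class under 1400 bp (Lyz2, Cd68, C1qa and C1qb) had a median of 0.32, which became 0.23 once a trend with length was taken out of each library, while the median of all such genes became 0.01. Tyrobp and Fcer1g, also under 1400 bp, were below that expression class. Lyz2 was 0.31 after this step (adjusted p = 0.00336, edgeR) and was the 1 marker called, with 0.923% of all genes called as higher. Of the others, Tyrobp was at 0.46 (adjusted p = 0.370) and C1qb at 0.26 (adjusted p = 0.377). Ptprc, with the longest exons, changed from -0.08 to 0.05. Other properties that follow length were not tested.

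Genes that accompany the markers were read from lists, which were chosen with earlier results of these data known. Among 40 other genes used as macrophage or myeloid markers, 37 were tested. For PEDF against control 0 were called, adjusted or unadjusted, in edgeR, and the median log2 fold change was 0.05. With the block 0 were called, and 3 passed 0.05 unadjusted, all higher, as did 7.18% of all genes. Between the preparations 8 were lower in experiment 2 (2.19% of all genes tested were) and none higher, and the median was -0.49. Cd52, a small surface glycoprotein of leukocytes, had 30 and 22 counts in experiment 1 (control and PEDF) and 11 and 5 in experiment 2 (log2 fold change -1.95, adjusted p = 0.0139). The tetraspanin Cd53 had 83, 53, 37 and 51 counts in the same order (-0.85, adjusted p = 0.0267). Ncf1 and Plek followed (-0.75 and -0.68). Ncf1 encodes a subunit of the phagocyte NADPH oxidase. In 27 of the 37 genes both libraries of experiment 2 lay below both of experiment 1, as they did in 18.4% of all genes tested. Timd4 and Lyve1, which mark subsets of resident macrophages, had no count in any library.

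Of the CSF1 receptor pathway, 9 of 10 genes were tested and 1 was called between preparations, where 4.49% of all genes were called (2.3% higher and 2.19% lower). Csf1, the ligand, had 183 and 204 CPM in control MEFs and 163 and 203 CPM with PEDF, and was higher in experiment 2 (0.24, standard error 0.05, adjusted p = 1.92e-04), opposite to the fitted sign of the 10 markers. For PEDF against control its log2 fold change was -0.08 (adjusted p = 0.897). Among complement genes, 16 of 19 were tested, and Serping1, which encodes the C1 inhibitor, was among those called as lower in experiment 2 (-0.43, adjusted p = 0.0202). Of the genes that act with the ITAM adaptors, 14 of 20 were tested and Ptpn6, the phosphatase SHP-1, was lower in experiment 2 (-0.93, adjusted p = 7.98e-04). For PEDF, edgeR called 0 genes of these lists. The 2 that passed 0.05 unadjusted, where 6.88% of all genes did, were on the ITAM list. Of these, 1 was higher and 1 lower.

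**Figure D5:**
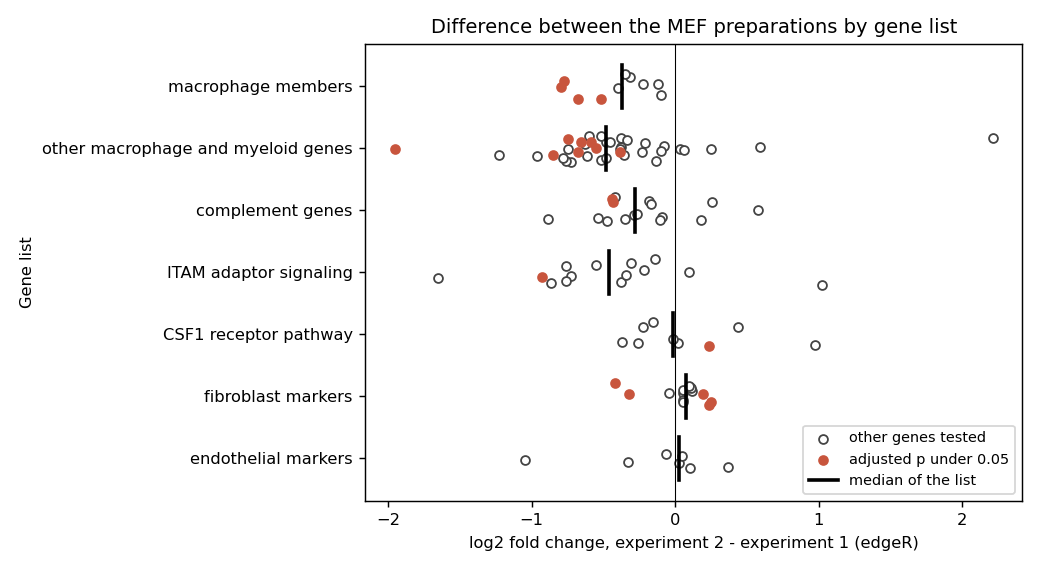
The edgeR log2 fold change of experiment 2 against experiment 1 is plotted for each tested gene of 7 lists, with filled points for an adjusted p under 0.05 and a bar at the median. The macrophage lists have medians of -0.37 and -0.49, and the complement and ITAM lists -0.28 and -0.46. The medians of the CSF1 receptor, fibroblast and endothelial lists are -0.01, 0.08 and 0.03.

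Markers of other cells were read in the same way. Of the fibroblast markers, 14 of 14 were tested. Their sum was 47820 CPM in control and 43370 CPM with PEDF in experiment 1, and 55620 and 46760 CPM in experiment 2. The sum was thus lower with PEDF in both experiments. Most of it came from Col1a1, Fn1, Col1a2 and Col3a1, which have exons over 6000 bp and were each lower with PEDF in both. The sum does not speak for all 14 markers, since 3 (Thy1, Dcn and Lum) were higher with PEDF in both. For PEDF edgeR called 0 of the 14 fibroblast markers (4 unadjusted, against 6.88% of all genes). With the block 6 were called (3.75% of all genes). Of these 6, Fn1, Col1a1, Pdgfrb and Col1a2 were lower and Lum and Dcn higher. Once the length trend was removed, 5 were called and Col1a2 was not (adjusted p = 0.794). Between the preparations 3 were higher in experiment 2 (2.3% of all genes), among them Col1a1 (0.23, adjusted p = 2.49e-09) and Pdgfrb (0.25, adjusted p = 2.73e-06), and 2 were lower (2.19%), Lum (-0.42, adjusted p = 5.81e-09) and Dcn (-0.32, adjusted p = 8.71e-06). Lum and Dcn, which encode small proteoglycans of the matrix, shared the sign of the macrophage markers. Among endothelial markers, 7 of 9 were tested and none was called in either comparison (0 unadjusted). T and NK cell markers summed to 3.42 to 5.28 CPM, mostly Lck and Cd3g, with Cd8a and Cd2 at 0 counts. The B cell markers summed to 0.707 to 2.03 CPM, granulocyte and mast cell markers to 0.842 to 2.64 CPM with Elane and Cpa3 at 0, and erythroid and megakaryocyte markers to 7.86 to 10.7 CPM, mostly Itga2b and Ppbp. Of these blood lists, 2 of 9 T and NK and 2 of 6 B cell markers were tested. So were 4 of 11 granulocyte and mast cell and 5 of 11 erythroid and megakaryocyte markers. None of these was called in either comparison, where 4.49% of all genes were called between preparations. With so few genes tested, 0 calls at that share say little. All 4 tested granulocyte markers and all 5 tested erythroid or megakaryocyte markers were fitted below 0 for experiment 2, as the macrophage markers were. The 2 tested B cell markers were too, while the T and NK markers split (Lck -0.80, Cd3g 0.24). Over all genes tested, 9662 of 19384 were below 0. The part of these cells in the marker levels was not tested.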

How the data were processed

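Polyadenylated RNA of 4 MEF libraries was analyzed. Per the labels and the paper's methods, the authors trimmed paired reads with Trimmomatic 0.38, aligned them with HISAT2 2.1.0 to mm10 and counted uniquely mapped reads with featureCounts 1.6.3. They deposited raw counts per gene, which were tested here, and TPM, whose calculation is not given in the sources used here. Of 55487 genes, 54784 had the coordinates of GENCODE release M21 (GRCm38), from which exon lengths were taken.

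Counts were tested in R 4.3.3 with edgeR 4.0.16 (TMM factors, robust quasi-likelihood test, Benjamini-Hochberg adjustment) in 19384 genes with 10 or more counts in total. PEDF was compared with control without a covariate (the paper's methods state no design formula), and experiment 2 with experiment 1 with treatment as a term. Standard errors were derived from the fold change and F statistic. Embryos differed between the experiments per the labels, so the experiment numbers pair the libraries (r = 0.423 between the experiment differences of control and PEDF over 10745 genes).

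Alternatives were DESeq2 1.42.0, RLE factors, other filters, the experiment as a block, a spline trend with gene length (5 degrees of freedom) removed, limma 3.58.1 on log2(TPM + 1) and single libraries left out. The block with other filters was added after seeing the data. Tests were checked on simulated data. Members and lists were chosen with earlier results of these data known. All members were named, with up to 4 genes per list that were called, by size of change, and otherwise those with the highest CPM. Spi1, Hmgxb3, Lyz1, Fn1, Col1a2 and the genes named at 0 counts (Timd4, Lyve1, Cd8a, Cd2, Elane and Cpa3) were named outside this rule, after their values were seen, and Rbp4, Gm45507, Serping1 and Gm11993 by likeness. Some items that these rules name are not reported here. Intervals and limits at 0 counts (3 counts) cover counting error only, since PCR copies are not independent molecules.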

Additional observations from a re-analysis of the deposited data

Results flagged for a closer look

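In 2 markers PEDF and control differed in opposite directions in the experiments, and the difference was not tested because each experiment had 1 library per condition. Adgre1 had a log2 ratio of PEDF to control of -0.28 in experiment 1 and 0.25 in experiment 2, which differ by 0.53. Ptprc had 0.41 in experiment 1 and -0.60 in experiment 2, a difference of -1.02, from 46 to 73 counts in a library.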

How the results depend on the processing

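For PEDF against control, the 1 gene called became 106 with no filter, 0 with filterByExpr (1187 with an unadjusted p under 0.05), 3 in DESeq2, 0 in limma on log2(TPM + 1) (964 unadjusted), 2 to 205 with single libraries left out, and 726 with the replicate block in edgeR (119 with the block in DESeq2, 424 with the length trend removed, 696 and 710 with the block and no filter or filterByExpr). The count of markers called was 1 (Lyz2) with the block in edgeR, also with the length trend removed. It was 0 with the block and no filter on low counts, and 0 with the block and filterByExpr. The block changed no other call of a marker. Between preparations, the 870 genes called became 102 in DESeq2 (72 higher), 11 without the treatment term, 1 in limma (2322 unadjusted) and 21 to 480 with libraries left out, and the 4 markers became 0 without that term and in limma, and 0 to 4 with libraries left out. The ratio of summed markers in experiment 2 was 1.16 without Lyz2 and Cd68 and 1.405 by TPM. Signs of single markers turned for Ptprc with the block and the length trend removed (0.045) and with libraries left out for Lyz2 (-0.16 to 1.04), C1qc (-0.15 to 0.79), Adgre1 (-0.35 to 0.31) and Ptprc (-0.53 to 0.33), and between preparations for Csf1r (-0.20 to 0.005) and Fcer1g (-0.46 to 0.044). The causes were not tested. Of 130 marker values for PEDF and 90 for preparations that had an adjusted p, 118 and 69 kept their direction and side of the threshold, and 10 in each comparison had none in DESeq2. A library left alone in its group was assumed to vary like the others.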

Other observations

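Among 14314 genes with 100 or more counts outside the markers, those with a pattern over the 4 libraries most like that of the summed markers included Rbp4, Gm45507, Serping1 and Gm11993. Likeness was the root mean square distance of centred log2(CPM + 0.5), which was 0.0144 for Rbp4 and 0.0342 for Gm11993, against a median of 0.286 over the candidates. Rbp4, which encodes the retinol carrier of blood, had 4.81 and 2.97 CPM in control MEFs of experiments 1 and 2 and 5.08 and 4.04 CPM with PEDF. Over only 4 libraries this likeness is a description.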
